A study of Mus musculus with 6 samples.

Results

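The genes described here are 42 mouse genes of the Myc network and of ribosome biogenesis, taken by symbol from a fixed list and matched to the Ensembl identifiers of the count tables. The list holds 5 genes of the Myc network and 37 genes that build ribosomes. All 42 were found among the 49315 genes of the files, and all 42 passed the filter on low counts, which left 12928 genes. The list was named by function, with no threshold on a measured value, by a model that knew earlier results of these data. Their levels were followed in 6 RNA sequencing libraries of CBir1 TCR Tg CD4+ T cells, whose transgenic receptor is specific for a bacterial flagellin of the gut.

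The libraries came from spleen of C57BL/6 mice, with 1 library per condition. For 5 of them, CD45.1 donor cells without CD44 were transferred into CD45.2 recipients on day 0. These recipients received 50 ug of CBir1 flagellin with 1 ug of CT intraperitoneally on days 1 and 7, and per the protocol a challenge with 3 ug of MEP1 on day 56, 7 days before the donor cells were sorted on day 63. MEP1+CMC mice also had 3 ug of MEP1 intravenously on days 28 and 35, each time followed by 5 daily injections of the vehicle CMC. MEP1+Metformin, MEP1+Rapamycin and MEP1+Metformin+Rapamycin mice had those inhibitors in CMC in its place, so MEP1 and CMC are common to these 4 libraries. No treatment mice had neither MEP1 nor an inhibitor on days 28 and 35. The naive control is labelled as naive CD4 cells of the same transgenic line, with no agent named. The sources used here do not give inhibitor doses, the age or sex of the mice, or how many mice or cells stand behind a library, and what CT, CMC and MEP1 stand for is left as labelled. Donor cells that had left the spleen or died were not sampled, and libraries were made with an ultra-low input kit.

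Myc is a transcription factor that binds DNA as a dimer with Max, most often at E-box motifs, and raises transcription of genes for growth. Mxd1, Mxd4 and Mxi1 compete with Myc for Max and form dimers that repress the same kind of site. Ribosomes are built in the nucleolus: RNA polymerase I transcribes the ribosomal RNA precursor, small nucleolar RNPs modify it, and large sets of assembly factors fold and cut it into the small and large subunits. T cells that meet antigen are known to raise Myc and this machinery early, before they divide, while resting cells keep both low. Rapamycin inhibits mTOR complex 1 and metformin inhibits mitochondrial complex I, and both pathways feed into ribosome production.

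The E-box CACGTG, the site of Myc and Max dimers, was sought in the promoters of the members. RefSeq promoters (GRCm38.p6, 250 bases before to 50 after each start) were given for 36 of the 42 members, without Myc, Npm1, Fbl, Rrp12, Bop1 and Rrs1. The motif reads the same on both strands, and 10 of the 36 (27.8%) held it, against 11.8% of 9141 kept genes and 8.09% of all 27025 genes in that table. Counting only motifs that lie before the start, the share was 2 of 36 members (5.56%) against 9.91% of kept genes, so the members were not above the background there and the other matches lie across or after the start. These 10 are Max, Mxd4, Mybbp1a, Utp20, Ltv1, Tsr1, Wdr43, Pes1, Nop2 and Grwd1. Of the biogenesis members with a promoter, 8 of 32 (25%) held it, and 1 of 32 (3.12%) before the start. Of the other biogenesis genes listed for comparison, 19 of 98 (19.4%) held it, and 11 of 98 (11.2%) before the start. Windows are shown for 3 members that fell in the transferred cells, for Utp20, which had the highest ratio of MEP1+Metformin to MEP1+CMC, and for Mxd4, the most even gene of the Myc network, each 5′ to 3′ with the motif in capitals.
Max: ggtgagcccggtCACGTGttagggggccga
Grwd1: gggccggagtcgCACGTGtgaaaccgga
Mybbp1a: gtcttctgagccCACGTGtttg
Utp20: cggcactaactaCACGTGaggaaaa
Mxd4: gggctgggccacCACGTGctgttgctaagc
They lie at chr12:76962234-76962263 (minus strand), chr7:45830740-45830767 (minus), chr11:72441355-72441376 (plus), chr10:88826765-88826789 (minus) and chr5:34187912-34187941 (minus), in the same order. In Max the motif begins 3 bases before the RefSeq start, and in Mxd4 219 bases before it. In Grwd1, Utp20 and Mybbp1a it begins 34, 37 and 40 bases after it. A match shows only that these letters stand in the window. Members with and without it covered overlapping ranges in every pair of libraries. For No treatment over the naive control the log2 ratios ran from -1.23 to 0.05 with the motif (n = 10, median -0.51) and from -1.10 to 0.29 without it (n = 26, median -0.40).

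The depth was 26139000 to 60622310 counts per library, and the lowest count of any member was 262 (Wdr74 in the naive control). Levels are CPM, counts divided by the library's size and multiplied by 1e6, after TMM scaling, which sets the bulk of genes equal between libraries, and each ratio is given with an exact 95% interval that covers counting error only. A ratio past the size rule is at least 2-fold with an interval that excludes no change. The naive library stood apart: 5 loci that resemble ribosomal RNA took 15.4% of its counts, against 1% to 3.13% in the others, and its TMM factor was 0.716 against 0.997 to 1.13. In the No treatment file the column header names no challenge, although the protocol gives one to all recipients. The sample's label, which does not mention the challenge, was followed. If the header is right, a difference of No treatment from the other transferred libraries cannot be told apart from one of the challenge. Summed macrophage markers were 3954 CPM in No treatment, 580.2 to 868.8 CPM in the other transferred libraries and 93.2 CPM in the naive control, with Cd14 alone of the 12 at 0 there. All 12 markers of CD4 T-cell identity had counts in each of the 6 libraries, but their sum was not even. It was 121625 TMM CPM in the naive control and 36855 to 56005 in the others. Trbc2 made up most of it, with 109194 in the naive control and 27984 to 44977 elsewhere. Cd4 itself was lowest in the naive control, at 552.5 against 761.1 to 1076. Other marker sums moved as well: erythroid markers were at 1626 TMM CPM in No treatment, 366.6 in MEP1+CMC, 72.1 with metformin, 115.4 with rapamycin, 65.9 with both and 392.6 in the naive control. B cell markers were at 103.2 TMM CPM in the combination and 123.7 in the naive control, against 30.7 to 55.9 elsewhere, and CD8 markers at 30.1 in the naive control against 3.24 to 7.24. None of the genes of these 3 lists that passed the filter was at 0. Plasma cell markers were at 907.1 to 1895 TMM CPM, highest in No treatment, with 1270 in the naive control. The part of all these lists in the members' values was not tested. Xist was at 257.2 TMM CPM in MEP1+CMC, 42.8 in the naive control, 23 in No treatment and 0.218 to 0.532 with an inhibitor. The Y-linked Ddx3y was at 0.301 in MEP1+CMC, 0.374 in the naive control, 34.2 in No treatment and 67.9 to 95.9 with an inhibitor. A difference between libraries unlike in these transcripts therefore cannot be told apart from one of the sex of the mice. This holds for MEP1+CMC, No treatment and the naive control against the inhibitor libraries. It also holds for No treatment, with both Xist and Ddx3y, against MEP1+CMC and the naive control. MEP1+CMC and the naive control were alike in Ddx3y, though not in Xist. The 3 inhibitor libraries do not differ from each other in this way. In bulk RNA, fewer cells of a type and less RNA per cell cannot be told apart.

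With TMM scaling, the members as a group stood highest in the naive control. Summed over the 37 ribosome biogenesis genes, the level was 4316 TMM CPM in the naive control and 2854 to 3188 TMM CPM in the 5 transferred libraries. Of the 42 members, 32 (76.2%) were highest in the naive control, against 31.8% of all genes kept. This order rests on the scaling, because with library totals 9 of 42 members (21.4%) and 9.46% of all genes were highest there. The share of all counts taken by the 37 genes was 0.309% in both the naive and the No treatment library, 0.298% in MEP1+CMC, and 0.33% with metformin, 0.334% with rapamycin and 0.334% with both, so by this measure the inhibitor libraries were the highest. Leaving out the 5 rRNA-like loci, it was 0.365% in the naive control and 0.301% to 0.345% in the other libraries.

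**Figure D1:**
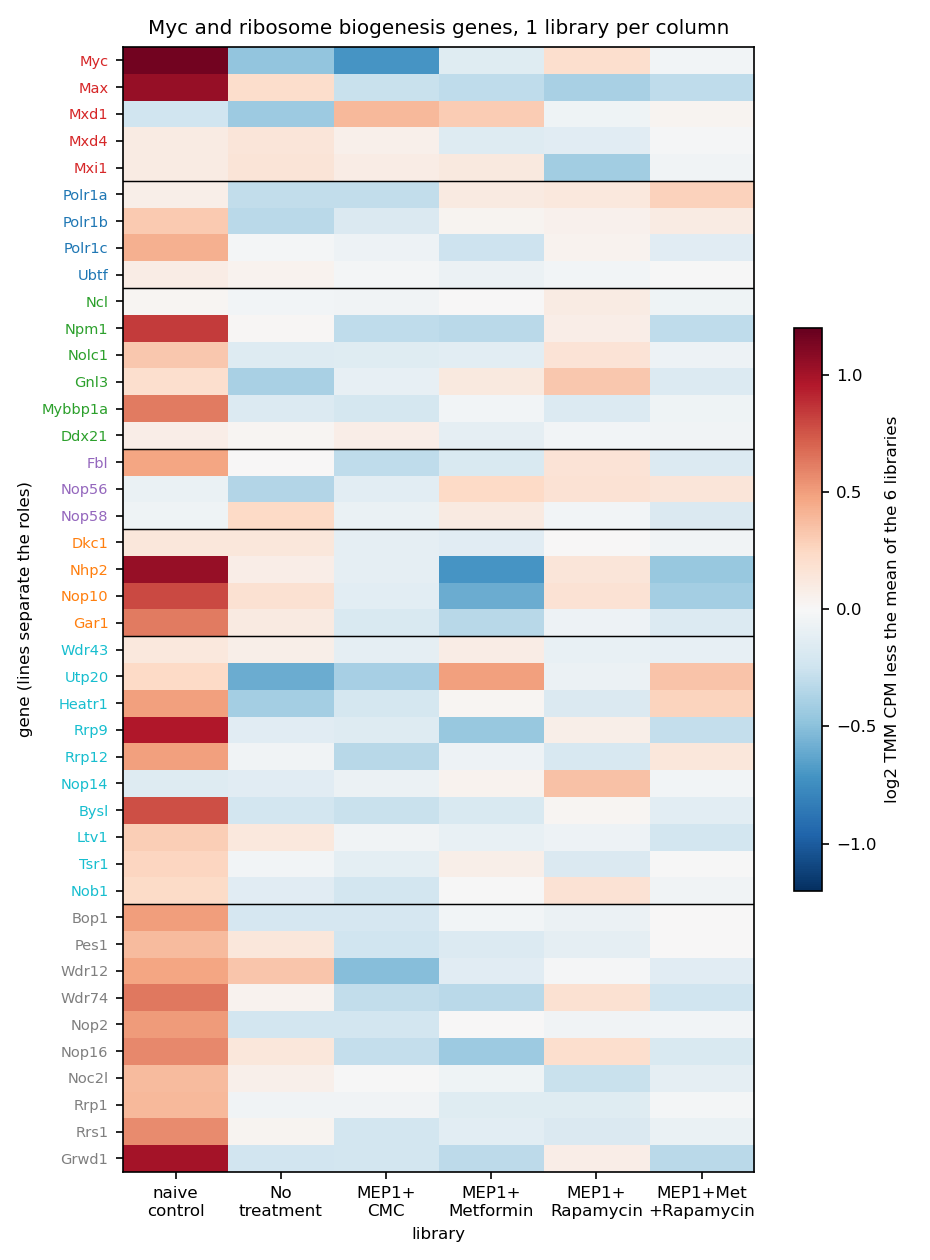
Log2 TMM CPM of the 42 members (vertical axis, grouped and coloured by role) in each of the 6 libraries (horizontal axis), less each gene's mean over the 6; red is above and blue below that mean. The naive column is the reddest, with Myc, Max, Nhp2, Rrp9 and Grwd1 highest, an order that library totals reduce to 9 of 42 members.

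In the comparison of the 5 transferred libraries with the naive control, 8 members fell and 0 rose by edgeR's quasi-likelihood test with Benjamini-Hochberg adjustment over all genes. All genes gave 5.87% that fell and 4.51% that rose. The 8 came from 5 of the 7 roles: Myc and Max, the nucleolar proteins Npm1 and Mybbp1a, the snoRNP protein Nhp2, the small-subunit factors Rrp9 and Bysl, and the large-subunit factor Grwd1. None of the 4 RNA polymerase I genes (smallest adjusted p = 0.12) and none of the 3 box C/D genes (0.11) was called. At an unadjusted p under 0.05 there were 22 members, against 28.9% of all genes. DESeq2's Wald test called more members and more of all genes, and its members included Polr1c of RNA polymerase I and Fbl of box C/D. Each test sets 5 transferred libraries, of 5 treatments, against 1 naive library that is assumed to vary like the others. What the treatments did cannot be told apart from the other differences of the naive library. These lie in rRNA-like loci, sex-linked genes, CD4 T-cell markers and markers of other cells. The p-values speak only of the spread among these 6 libraries, which may be technical. With library totals in place of TMM, 0 members and 182 genes in all fell and 2427 rose. With the rRNA-like loci left out of the totals, 3 members fell (Max, Rrp9 and Grwd1), and all genes split into 895 that rose and 228 that fell, against 583 and 759 with TMM.

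In the single pair of No treatment and naive control, 3 members (Myc, Grwd1 and Rrp9) were lower past the 2-fold rule and 0 higher, where 8.21% of all genes were lower and 15.8% higher. Relative to no change, 38 of 42 members were lower in No treatment, and relative to the median of all genes, which does not depend on the scaling, 39 of 42 were lower. The members' median log2 ratio was -0.46, against 0.03 for all genes. At 1.5-fold, 15 members were lower and 0 higher, against 17.7% and 22.7% of all genes. The members' share of lower genes was thus near that of all genes at 2-fold and above it at 1.5-fold. Library totals moved the all-gene median by 0.48 to 0.50 and the members' median to 0.02, and left Myc alone past the 2-fold rule. By role the median was -0.18 in the Myc network, -0.40 in RNA polymerase I, -0.54 in nucleolar scaffold genes, -0.28 in box C/D and -0.57 in box H/ACA snoRNP genes, -0.45 in the small and -0.49 in the large subunit genes, each of them above its TMM value by 0.48 with library totals, which puts the Myc network, RNA polymerase I, box C/D and small subunit medians above 0.

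**Figure D2:**
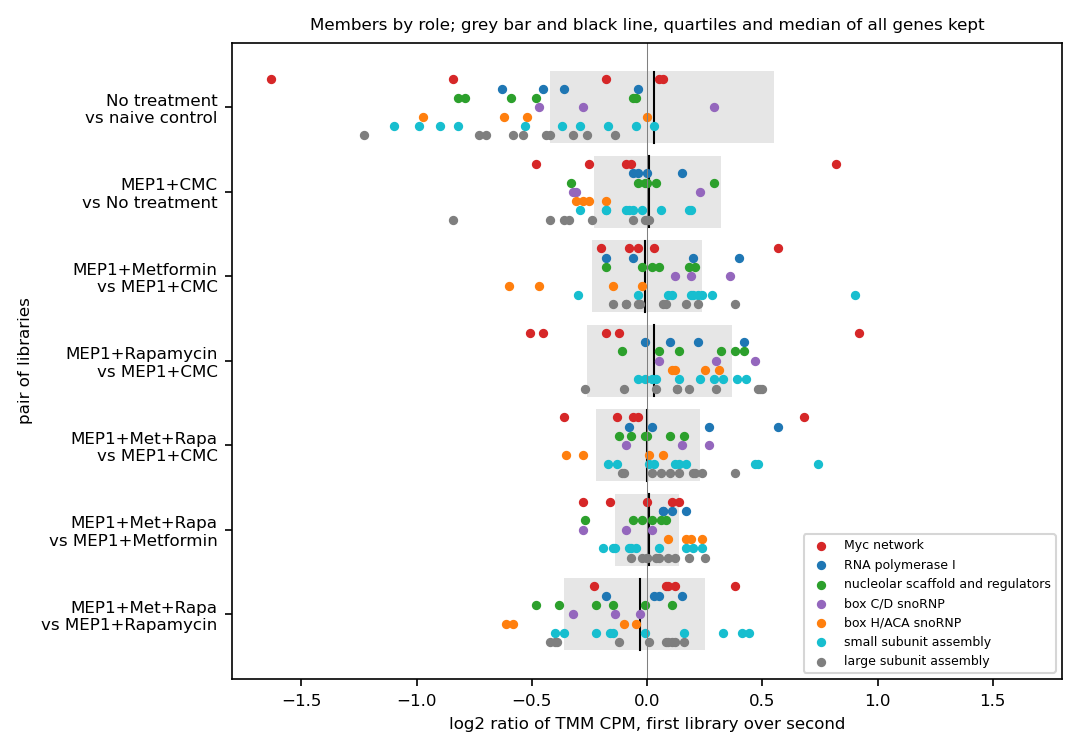
Log2 ratio of TMM CPM (horizontal axis) of the 42 members, 1 point per gene coloured by role, in 7 pairs of libraries (vertical axis), with the quartiles (grey bar) and median (black line) of the 12928 genes kept. In No treatment over naive control 38 points lie below 0, where library totals would move all points right by 0.48; in the other pairs no point reaches 2-fold.

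Myc (chr15:61985391-61990374, GRCm38) stood at 110.1 TMM CPM in the naive control. In the transferred cells it was at 35.6 in No treatment, 30.0 in MEP1+CMC, 44.7 in MEP1+Metformin, 56.6 in MEP1+Rapamycin and 48.1 in MEP1+Metformin+Rapamycin. All 5 transferred libraries were thus below the naive control, and the 3 with an inhibitor were above both without one. Those 3 also differed from both in Xist and Ddx3y, so this cannot be told apart from the sex of the mice. Myc fell in the transferred cells by 1.36 on the log2 scale (SE 0.29, edgeR adjusted p = 0.023). In No treatment alone the ratio to naive was -1.63 (-1.72 to -1.54), the lowest of the members, and it passed the size rule also with library totals.

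Max, the shared partner of Myc and the Mxd proteins (chr12:76937269-76962248), followed the naive difference but not the inhibitors. It was at 95.9 TMM CPM in the naive control, 53.7 in No treatment and 35.6 to 38.6 in the 4 libraries given MEP1 on days 28 and 35. Among these 4 no inhibitor stood out. Max fell in the transferred cells by 1.24 (SE 0.23, edgeR adjusted p = 0.015).

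Of the 3 repressors, none was called in the transferred cells. Mxd4 was the most even, between 61.5 and 75.5 TMM CPM with 73.0 in the naive control. Mxd1 ranged from 30.2 in No treatment to 53.3 in MEP1+CMC, with 34.2 in the naive control, 50.3 in MEP1+Metformin, 39.1 in MEP1+Rapamycin and 41.6 in MEP1+Metformin+Rapamycin. Mxi1 was at 27.6 to 31.8 in 5 libraries and 21.2 in MEP1+Rapamycin. A ratio of 2 transcripts within a library needs no scaling factor, but its order depends on the partner chosen. Per unit of exon length, the ratio of Myc to Mxd4 was 4.71 (4.4 to 5.05) in the naive control, 1.47 (1.4 to 1.55) in No treatment and 1.32 (1.25 to 1.4) in MEP1+CMC. With an inhibitor it was 2.27 (2.15 to 2.4) for metformin, 2.84 (2.67 to 3.02) for rapamycin and 2.21 (2.11 to 2.33) for both. Mxd4 is even in TMM CPM, so this ratio follows the TMM values of Myc and is no separate check on them. Per unit of Max, which itself was highest in the naive control, Myc was 0.848 (0.795 to 0.904) in the naive control, 0.489 in No treatment and 0.574 in MEP1+CMC. With metformin, rapamycin and both it was 0.878, 1.17 and 0.946, so the naive control was not the highest by this ratio. The inhibitor libraries were above No treatment and MEP1+CMC by both ratios, but differed from them in Xist and Ddx3y as well.

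**Figure D3:**
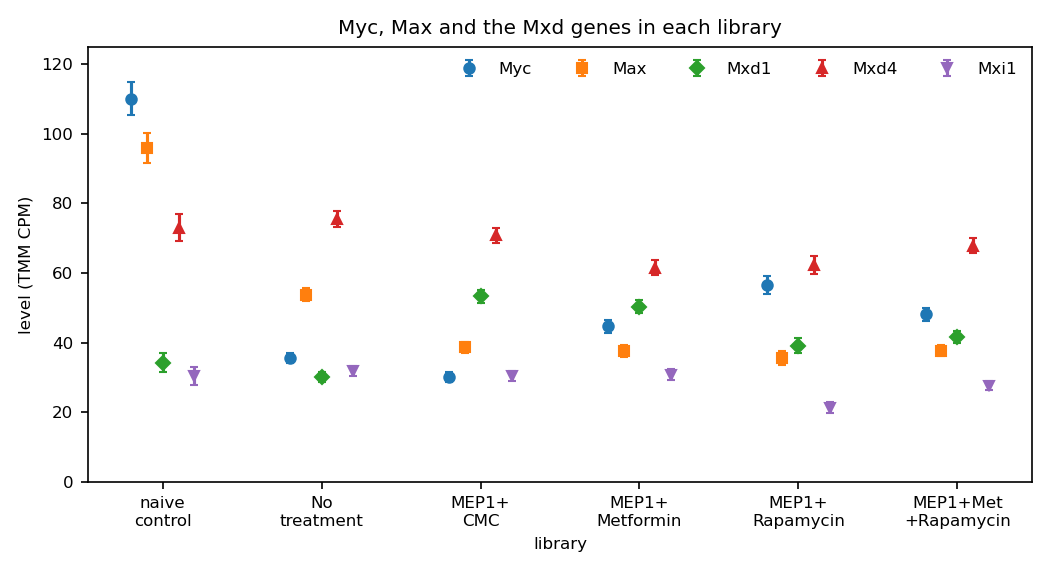
Level in TMM CPM (vertical axis) of Myc, Max, Mxd1, Mxd4 and Mxi1 in each library (horizontal axis); bars are exact 95% intervals of the count and cover counting error only. Myc is at 110.1 in the naive control and 30.0 to 56.6 in the transferred libraries, while Mxd4 stays between 61.5 and 75.5.

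Among the other called members, Grwd1, a chaperone of the large-subunit protein Rpl3 (chr7:45825223-45830944), had the smallest p. It was at 108.4 TMM CPM in the naive control and at 46.3 in No treatment, 46.5 in MEP1+CMC, 43.6 with metformin, 57.3 with rapamycin and 43.4 with both. Grwd1 fell by 1.19 (SE 0.19, edgeR adjusted p = 0.0082), and no transferred library came near the naive value. Rrp9, a protein of the U3 snoRNP that guides the first cuts of the precursor (chr9:106475963-106485424), was at 147.1 in the naive control and 68.7, 67.6, 55.0, 79.4 and 61.9 in the same 5 libraries. Rrp9 fell by 1.15 (SE 0.20, edgeR adjusted p = 0.012). Bysl, a late small-subunit factor (chr17:47599331-47611492), was at 67.2 in the naive control and 32.6 to 39.9 in the transferred libraries, and fell by 0.93 (SE 0.18, edgeR adjusted p = 0.017). Grwd1, Rrp9, Bysl, Myc and Max were called when any 1 transferred library was left out.

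Npm1, nucleophosmin, an abundant nucleolar chaperone (chr11:33152287-33163206), was at 585.3 TMM CPM in the naive control and at 331.2 in No treatment, 264.3 in MEP1+CMC, 261.1 in MEP1+Metformin, 344.6 in MEP1+Rapamycin and 264.2 with both. Npm1 has processed pseudogenes, and how reads shared with them were counted is not known here, so its level is uncertain. It fell by 1.00 (SE 0.21, edgeR adjusted p = 0.025). Mybbp1a, a nucleolar protein that restrains ribosomal RNA synthesis (chr11:72441355-72451768), was at 241.7 in the naive control and held between 136.1 and 154.4 elsewhere, and fell by 0.74 (SE 0.16, edgeR adjusted p = 0.027). Nhp2, a core protein of box H/ACA snoRNPs, which convert uridines of ribosomal RNA to pseudouridine (chr11:51619735-51623714), was at 130.6 in the naive control, 66.6 in No treatment, 58.9 in MEP1+CMC, 39.0 with metformin, 70.2 with rapamycin and 46.2 with both. All 5 transferred values were again below the naive one, the 2 with metformin furthest. It fell by 1.22 (SE 0.28, edgeR adjusted p = 0.033). Without MEP1+CMC, or without MEP1+Metformin+Rapamycin, Npm1, Mybbp1a and Nhp2 were no longer called and 5 members remained, and without MEP1+Metformin Npm1 and Mybbp1a were lost and 6 remained. In each of these fits fewer of all genes were called as well. Without No treatment, the library with the most macrophage marker counts, more members were called, and more of all genes were called too, both higher and lower.

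With TMM scaling, 32 of the 42 members were highest in the naive control, and Nop14, Nop58 and Nop56 are among the rest. Nop14, a small-subunit factor, was lowest in the naive control at 33.1 TMM CPM and highest in MEP1+Rapamycin at 47.3. Nop58, a scaffold of box C/D snoRNPs, was at 71.9 in No treatment, 57.8 in MEP1+CMC, 65.9 in MEP1+Metformin, 59.7 in MEP1+Rapamycin, 54.3 in the combination and 58.9 in the naive control, and its No treatment to naive ratio of 0.29 (0.19 to 0.39) was the highest of the 42. Its partner Nop56 was also lower in the naive control (124.8) than in the 3 inhibitor libraries (144.8 to 154.0). The ranges of Ubtf (0.16 log2 units), Ncl (0.15) and Ddx21 (0.18) over all 6 libraries were the smallest. These 3 encode an RNA polymerase I factor, nucleolin and a nucleolar RNA helicase. Of them, Ubtf and Ddx21 were highest in the naive control and Ncl in MEP1+Rapamycin. Per kilobase of exon, Nop10, Rrp1 and Npm1 filled the first 3 ranks of the 42 in each library, and Utp20 (1.24 to 2.62 TMM CPM per kilobase) the last. Myc ranked 25 in No treatment, 27 in MEP1+CMC, 20 in MEP1+Metformin, 20 in MEP1+Rapamycin, 19 in the combination and 11 in the naive control.

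The wider pathway was read from lists of genes that are no members. Of 117 other ribosome biogenesis genes, all past the filter, 15 fell and 1 rose in the transferred cells by the edgeR test. All genes gave 5.87% that fell and 4.51% that rose. Their median log2 ratio of No treatment to naive was -0.20, with 77 of 117 below the median of all genes. Past 2-fold 6 were lower and 0 higher, where 8.21% of all genes were lower and 15.8% higher. At 1.5-fold 18 were lower and 3 higher, against 17.7% and 22.7% of all genes. At both folds the lower share was thus below that of all genes. Among those past the 2-fold rule were Pelp1 (31 TMM CPM in the naive control and 9.64 in No treatment), Nle1 (38.8 and 12.4) and Nop53 (484.9 and 237.1) of the large subunit. Nol6 (150.6 and 67.3) and Imp3 (141.0 and 68.7) of the small subunit were also past it. Mnt, another repressor that dimerises with Max, was at 24.7 TMM CPM in the naive control and 8.57 in No treatment (-1.53, -1.71 to -1.34). Among 26 Myc targets outside the ribosome, 4 were lower past 2-fold and 2 higher, and the extremes pointed in opposite directions. Slc7a5, a transporter of large neutral amino acids, was lower (-2.45, -2.53 to -2.36), as was Cad, which starts pyrimidine synthesis (-1.52, -1.61 to -1.43). Odc1, the first enzyme of polyamine synthesis, was higher in No treatment (2.00, 1.90 to 2.11). All 12 macrophage markers were higher past 2-fold in No treatment than in the naive control (median 4.99), as were 9 of 17 measured proliferation markers, with 0 lower. Summed proliferation markers were 499.3 to 644.9 TMM CPM in all 6 libraries, with 601.7 in the naive control. Mcm2, Mcm3, Mcm5, Mcm6 and Pcna made up most of each sum, so it hides the other markers. Mki67 was at 0.534 in the naive control and 4.61 to 9.13 elsewhere, and Tyms at 3.79 and 14.7 to 18.7. In No treatment over the naive control 4 of the 17 were below 0. The part of the macrophage and proliferation lists in the members' values was not tested.

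When No treatment was set against the 4 libraries with earlier MEP1 doses in edgeR's test, 0 of the 42 members were called, where 0.402% of all genes rose and 1.04% fell. One arm of this test is a single library, and the other pools 4 treatments as if they were replicates, with 3 residual degrees of freedom. That single library also differed in Xist and Ddx3y and perhaps in the challenge, which cannot be told apart from the MEP1 doses. At an unadjusted p under 0.05 there were 4 members, against 17% of all genes, and DESeq2's Wald test called 1 member, Max, which it placed lower. Those 4 were Max (-0.53, edgeR adjusted p = 0.16), Mxd1 (0.61, 0.24), Wdr12 (-0.53, 0.26) and Nop56 (0.46, 0.29). Of the 12 macrophage markers 10 fell in the same test, with No treatment the highest, and their part in the members' values was not tested.

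In the pair of MEP1+CMC and No treatment, the members differed little. The median was -0.06 (0.00 with totals without rRNA-like loci), 32 of 42 were below 0 with TMM, and 0 passed 2-fold, where 8.69% of all genes were higher and 3.51% lower. At 1.5-fold there were 2, Mxd1 higher and Wdr12 lower (15.2% and 6.85% of all genes). Mxd1, the Max partner that accompanies exit from the cell cycle, gave 0.82 (0.74 to 0.90). Wdr12, which with Bop1 and Pes1 forms a complex needed for large-subunit processing (chr1:60069785-60098645), gave -0.84 (-0.93 to -0.76). Its levels were 48.8 TMM CPM in No treatment, 27.2 in MEP1+CMC, 35.3 in MEP1+Metformin, 38.5 in MEP1+Rapamycin, 35.3 in the combination and 53.9 in the naive control. Wdr12 was thus lowest in MEP1+CMC, as was its partner Pes1 (76.2, against 79.8 to 117.3), while Bop1 was alike in No treatment (106.2) and MEP1+CMC (106.1). Gnl3, nucleostemin, gave the second highest ratio of the pair, 0.29 (0.19 to 0.39), and Max the second lowest, -0.48 (-0.56 to -0.40). All 4 box H/ACA genes lay between -0.31 and -0.18.

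Rapamycin was compared within 2 pairs that share no library, MEP1+Rapamycin with MEP1+CMC and the combination with MEP1+Metformin. In the additive model of the 4 MEP1 libraries, the edgeR rapamycin term called 0 members, as did DESeq2, where 0.0309% of all genes rose and 0.0309% fell. At an unadjusted p under 0.05 there were 2 members, Myc (0.49, SE 0.21, adjusted p = 0.73) and Mxd1 (-0.37, adjusted p = 0.73), against 6.7% of all genes. The model has 1 residual degree of freedom, which is the departure from additivity.

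Without metformin, 32 of 42 members were higher with rapamycin, 31 of them among the 37 biogenesis genes, with a median over the 42 of 0.14. Relative to the median of all genes (0.03), 31 were higher. None passed 2-fold, where 7.4% of all genes were higher and 4.49% lower. Myc alone passed 1.5-fold (16% and 9.89% of all genes), with 0.92 (0.82 to 1.01). The next were Wdr12 (0.50, 0.39 to 0.61) and Nop16 (29.6 TMM CPM in MEP1+CMC and 41.6 in MEP1+Rapamycin), both of the large subunit. The lowest were 2 repressors of the Myc network, Mxi1 (-0.51, -0.64 to -0.39) and Mxd1 (-0.45, -0.54 to -0.35). Each role other than the Myc network had a median above 0 here, from 0.16 to 0.30, but with TMM factors taken over all genes with a count the median over the 42 was -0.02, as the all-gene median then moved by -0.16.

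With metformin present, rapamycin went with smaller ratios. The median was 0.05, 26 of 42 members were above 0, and 0 passed either fold (2-fold, 1.22% of all genes higher and 1.9% lower, and 1.5-fold, 3.63% and 5.03%). Myc was at 0.11 (0.03 to 0.19), against 0.92 without metformin. Mxd1 was lower in both pairs (-0.28, -0.36 to -0.19, with metformin), as was Mxi1 (-0.16, -0.26 to -0.06). Nop58 was as low as Mxd1 (-0.28, -0.35 to -0.21), and Nop16 was the highest (26.7 TMM CPM in MEP1+Metformin, 31.7 in the combination, 53.9 in the naive control and 39.7 in No treatment). Over the 2 pairs, 21 members were higher in both, 5 lower in both and 16 of opposite sign, against 30.7%, 26.6% and 42.7% of all genes. Across the 42 genes the correlation of the 2 ratios was 0.27, and across the 37 biogenesis genes 0.08, against 0.04 across all genes. The points share the 4 libraries and their scaling, and genes are not independent replicates.

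**Figure D4:**
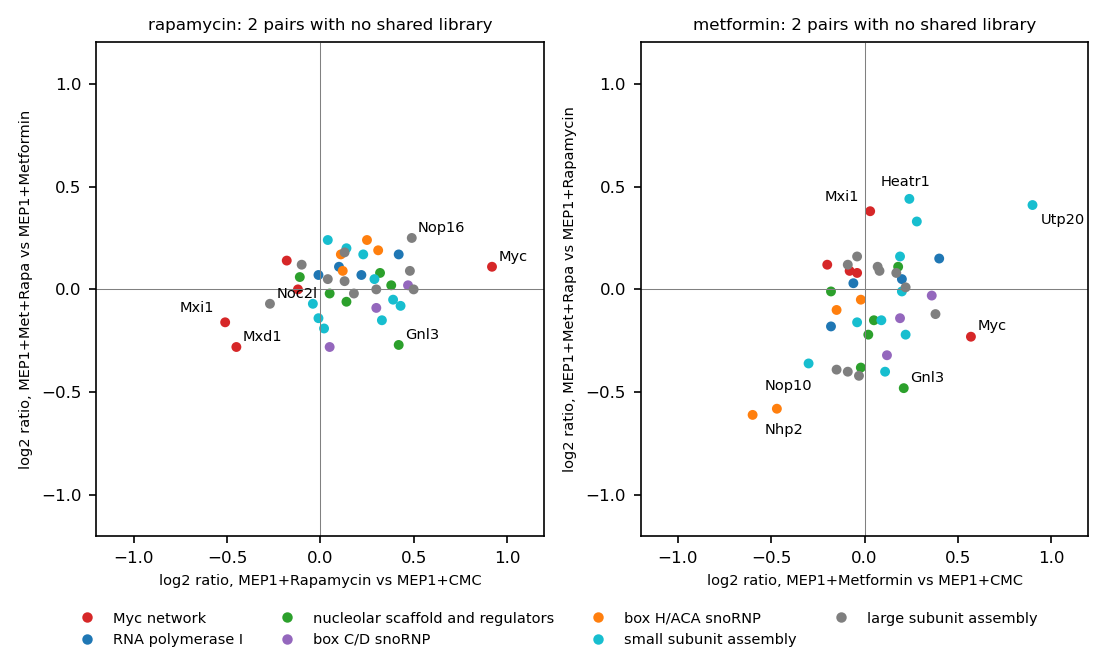
Each point is 1 of the 42 members, coloured by role, with the log2 ratio of TMM CPM for an inhibitor without the other on the horizontal axis and with the other on the vertical axis. With rapamycin (left) Myc is at 0.92 and 0.11, and with metformin (right) Nhp2 and Nop10 are lowest and Utp20 is high in both pairs.

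The polyamine enzyme Odc1 was the only one of 26 Myc targets outside the ribosome that fell in the rapamycin term (edgeR adjusted p = 0.022). It was at 187.2 TMM CPM in MEP1+CMC and 161.4 in MEP1+Metformin, and at 72.6 and 75.4 in the 2 libraries given rapamycin. Myc itself was higher in MEP1+Rapamycin than in MEP1+CMC. Of the 117 other biogenesis genes, 0 were called in this term by edgeR and 2 had an unadjusted p under 0.05, and their median ratio of MEP1+Rapamycin to MEP1+CMC was 0.10, with 76 of 117 above 0.

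Metformin was likewise compared within 2 pairs that share no library. The edgeR metformin term called 0 members, as did DESeq2, where 0.0232% of all genes rose and 0.0619% fell. At an unadjusted p under 0.05 there were 3 members, against 10.1% of all genes: Nhp2 (-0.58, SE 0.15, adjusted p = 0.44), Nop10 (-0.51, SE 0.15, adjusted p = 0.44) and Utp20 (0.67, SE 0.22, adjusted p = 0.44). With only genes above 2 CPM in all 6 libraries, Nhp2 was the only member called, where 53 of all 9858 genes rose and 93 fell.

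Against MEP1+CMC, the metformin library had Utp20, a large scaffold of the small-subunit processome (chr10:88746607-88826814), at 23.1 TMM CPM against 12.4 (0.90, 0.76 to 1.03) and Nhp2 at -0.60 (-0.68 to -0.52). These were the 2 members past 1.5-fold (8.21% of all genes higher and 6.87% lower), and 0 passed 2-fold (3.12% and 2.76%), although Utp20 did with library totals. In all 6 libraries Utp20 was at 10.9 in No treatment, 12.4 in MEP1+CMC, 23.1 in MEP1+Metformin, 15.7 in MEP1+Rapamycin, 20.8 in the combination and 19.4 in the naive control. The 2 metformin libraries were thus the highest of the 5 transferred ones. Myc was next at 0.57 (0.48 to 0.66), and the 3 box C/D genes lay between 0.12 and 0.36. The 4 box H/ACA genes lay between -0.60 and -0.02, where library totals would put Dkc1, the pseudouridine synthase, above 0. Nop10, a small core protein of that complex (chr2:112261926-112263269), was at -0.47 (-0.51 to -0.42). The median over the 42 was 0.06, and 24 were above 0.

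The second metformin pair, the combination over MEP1+Rapamycin, shares no library with the first and no gap in Xist or Ddx3y. Nhp2 was again lowest at -0.61 (-0.69 to -0.52) and alone past 1.5-fold (7.37% of all genes higher and 14.3% lower), and 0 members passed 2-fold (2.38% and 4.6%). Nop10 followed at -0.58 (-0.63 to -0.54). Nop10 was at 217.7 TMM CPM in No treatment, 175.5 in MEP1+CMC, 127.1 in MEP1+Metformin, 217.2 in MEP1+Rapamycin, 145.1 in the combination and 333.7 in the naive control, so the 2 metformin libraries were the lowest. Heatr1, a large scaffold of the same processome as Utp20 (chr13:12395398-12438677), was highest at 0.44 (0.34 to 0.54) and Utp20 next at 0.41 (0.26 to 0.56). Heatr1 was at 31.6 in No treatment, 35.9 in MEP1+CMC, 42.6 in MEP1+Metformin, 36.9 in MEP1+Rapamycin, 50.1 in the combination and 58.8 in the naive control. Its 2 highest transferred values were thus those with metformin. Myc was at -0.23 (-0.32 to -0.15) in this pair, opposite to the first, and Gnl3 (43.3 in MEP1+Rapamycin and 30.9 in the combination) at -0.48 (-0.58 to -0.38), also opposite to the first (32.4 in MEP1+CMC and 37.4 in MEP1+Metformin, with 26.5 in No treatment and 40.0 in the naive control). Taking the pairs together, 12 members were higher in both, 12 lower in both and 18 opposite, against 27%, 30.6% and 42.3% of all genes. The correlation of the 2 ratios was 0.47 across the 42 members and 0.62 across the 37, against -0.05 across all genes. All genes kept include some with few counts in a library, which the members do not. Here too the points share their libraries and scaling, and genes are not independent replicates. Both ratios also moved with exon length, as given below.

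Exon length moved with the metformin ratios, though not with these alone. Nhp2 (1146 bases) and Nop10 (1109) are the shortest members and Utp20 (8831) and Heatr1 (6537) are long. The correlation of the log2 ratio with log2 exon length was 0.51 across the 42 members and 0.21 across all genes in the first pair, and 0.55 and 0.22 in the second. The 21 members of up to 3468 bases had a median of -0.04 and the 21 longer ones 0.18 in the first pair, against -0.15 and 0.09 over all genes split at the same length. In other pairs the correlation across the 42 members was 0.40 for No treatment over naive control (0.05 across all genes), 0.38 for both inhibitors over MEP1+CMC (0.12) and 0.19 for MEP1+CMC over No treatment (0.08). It was -0.18 and -0.27 in the 2 rapamycin pairs (-0.08 and -0.11). Over all genes, the shortest of 20 length bins had a median of 0.51 in MEP1+Rapamycin over MEP1+CMC and -0.62 in the combination over MEP1+Rapamycin. That bin was at -0.28 in MEP1+Metformin over MEP1+CMC and -0.07 in both inhibitors over MEP1+CMC. The length trend of the second metformin pair thus cannot be told apart from one of the MEP1+Rapamycin library. For No treatment over naive control the shorter members had a median of -0.58 and the longer ones -0.29. In MEP1+CMC over No treatment the median of all genes ran from -0.26 in the shortest of 20 length bins to 0.30 in the longest, and Wdr12, in the longest, stood at -1.14 less that median. Genes of like length to Nhp2 and Nop10 had medians of -0.22 and -0.33 in the 2 pairs. Less these medians, Nhp2 stood at -0.38 and -0.28, Nop10 at -0.24 and -0.25, and Gar1, another box H/ACA protein, at 0.02 and 0.13. Utp20 less its like-length medians stood at 0.71 and 0.33. The part of length, RNA quality or library preparation in these values was not tested.

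**Figure D5:**
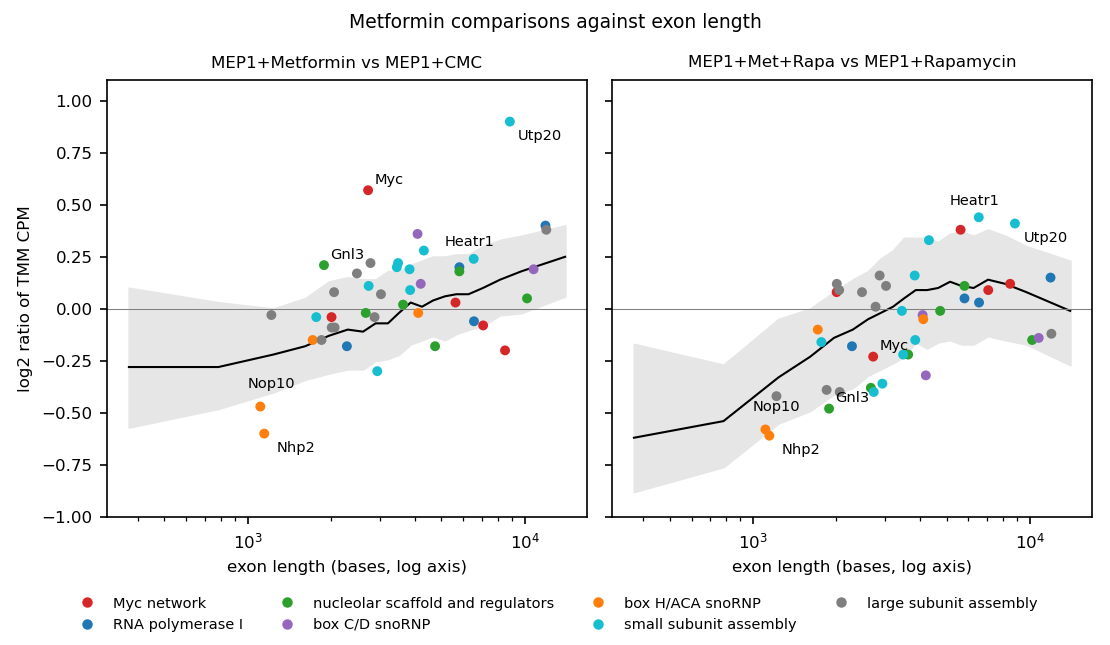
Log2 ratio of TMM CPM (vertical axis) against exon length in bases (horizontal log axis) for the 42 members, coloured by role, with the median (line) and quartiles (grey) of all genes kept in 20 bins of length. Short genes lie low in both metformin pairs. The longest bin has a median of 0.25 in the first pair and -0.01 in the second. Nhp2 and Nop10 lie below and Utp20 above the median of genes of like length.

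Both inhibitors together, over MEP1+CMC, gave a median of 0.05 with 26 of 42 members above 0. None passed 2-fold (3.22% of all genes higher and 3.64% lower), and Utp20 (0.74, 0.61 to 0.88) and Myc (0.68, 0.59 to 0.77) passed 1.5-fold (8.47% and 7.82%). The lowest members were Mxd1 (-0.36, -0.43 to -0.28) and Nhp2 (-0.35, -0.43 to -0.28). The 3 comparisons with MEP1+CMC share that library, and their values stand side by side: Myc was at 0.57, 0.92 and 0.68 with metformin, rapamycin and both, Utp20 at 0.90, 0.33 and 0.74, Nhp2 at -0.60, 0.25 and -0.35, and Mxd1 at -0.08, -0.45 and -0.36. Npm1 was at -0.02 with metformin, 0.38 (0.35 to 0.42) with rapamycin and -0.00 (-0.03 to 0.03) with both.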

How the data were processed

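Values are the authors' raw gene counts as deposited, whole numbers without normalization, made with featureCounts of Subread 1.5.2 after Trimmomatic 0.36 and STAR 2.5.2b on GRCm38, per the file headers and the submitters' processing notes. The sources used here do not give the strand setting or the annotation release. Symbols came from GENCODE M21 for 48970 of 49315 genes. Total counts were 60622310 in No treatment, 57289670 in MEP1+CMC, 44374250 with metformin, 32321936 with rapamycin, 50177994 with both and 26139000 in the naive control.

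Genes with at least 2 CPM and 10 counts in at least 1 library were kept, and TMM factors were computed on them with edgeR 4.0.16 (R 4.3.3). Pairs of libraries were compared by log2 ratio with an exact Clopper-Pearson interval, since no condition had a replicate. Without molecular identifiers, PCR copies are counted as reads, so intervals cover counting error only. Tests across genes used edgeR (glmQLFit robust, glmQLFTest, adjusted p under 0.05). A standard error is the log2 change divided by the root of F. The scripts were tested on simulated data. Alternatives were other scalings, filters, folds and tests (DESeq2 1.42.0) and leaving out libraries; rRNA-like loci, exon length and TMM over all genes with a count were added after seeing the data.

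The members and lists were chosen with earlier results of these data known. Given in full were the Myc network, members past the size rule or called in a test, and the 2 highest and 2 lowest in each pair. From the other lists, up to 3 genes past the size rule with at least 5 CPM were eligible to be named in each pair.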

Additional observations from a re-analysis of the deposited data

How the results depend on the processing

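No paired analysis was possible because each condition had 1 library. For No treatment over the naive control, the count of members past the size rule was 3, and became 5 with DESeq2 size factors, 1 with library totals, 1 with totals without rRNA-like loci and 15 at 1.5-fold; the median of -0.46 became 0.02 with totals and -0.21 without rRNA-like loci, and all genes split into 3284 higher and 427 lower with totals, 2573 and 622 without those loci, against 2042 and 1061. Counts of 0 became 2 at 1.5-fold and 1 less like-length medians (Wdr12) for MEP1+CMC over No treatment, 1 with totals, 1 without rRNA-like loci and 2 at 1.5-fold for MEP1+Metformin over MEP1+CMC, and 1, 2 and 1 at 1.5-fold for MEP1+Rapamycin over MEP1+CMC, both inhibitors over MEP1+CMC and both over MEP1+Rapamycin. Medians changed sign to 0.00 for MEP1+CMC over No treatment without rRNA-like loci, to -0.02 for MEP1+Rapamycin over MEP1+CMC with TMM over all genes, and to 0.07 with totals, 0.04 without rRNA-like loci and 0.11 with TMM over all genes for both inhibitors over MEP1+Rapamycin (-0.04). They became 0.18 with totals and 0.18 without rRNA-like loci for MEP1+Metformin over MEP1+CMC, and 0.16 and 0.16 for both inhibitors over MEP1+CMC. With totals, all genes split into 543 and 298, against 403 and 357, for MEP1+Metformin, 533 and 403, against 416 and 471, for both over MEP1+CMC, and 390 and 472, against 308 and 595, for both over MEP1+Rapamycin. Members called in the transferred cells went from 8 to 0 with totals, 3 without rRNA-like loci and 16 by DESeq2, and ranged from 5 to 13 when 1 transferred library was left out. DESeq2 called 1 member (Max) for MEP1, with 888 genes higher and 275 lower against 52 and 135 by edgeR, and the strictest filter called 1 (Nhp2) for metformin. In that metformin fit 53 genes in all rose and 93 fell, against 3 and 8 with the filter used here. In the transferred cells, settings that called more members also had more of all genes that fell. Settings that called fewer members had fewer. Causes of these shifts were not tested. The members' counts were at least 262 in every library, and 1 library per condition gave no replicate spread within a condition.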

Other observations

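Of the rest of the Myc network, Mlxip, a glucose-sensing partner of Mlx, was at 61.9 TMM CPM in No treatment, 74.1 in MEP1+CMC, 104.9 in MEP1+Metformin, 97.9 in MEP1+Rapamycin, 110.4 in the combination and 74.9 in the naive control, so the 3 inhibitor libraries were the highest. Those 3 libraries also differed from the rest in Xist and Ddx3y. Mlx was at 81.8 to 115.2 in the 6 libraries. Mga, a Max partner of the repressing kind, was lowest in No treatment at 30.6 and highest in MEP1+Rapamycin at 62.3, with 42 in the naive control. Mycn had 0 to 5 counts per library, Mycl 3 to 42 and Mlxipl 0 to 15, so Myc was the only Myc paralog with a level that could be compared.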
